A study of Mus musculus with 18 samples.

Results

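Transcripts of 10 members of the early growth response (EGR) and Krüppel-like factor (KLF) families of zinc-finger transcription factors were followed in bone marrow-derived macrophages (BMMs) with altered levels of the glucocorticoid-induced leucine zipper (GILZ). The members were Egr1, Egr2, Egr3, Klf2, Klf3, Klf4, Klf6, Klf7, Klf10 and Klf13, chosen by gene name from the 38887 genes measured. RNA of 18 libraries was sequenced, with 3 preparations in each of 6 groups: 3 genotypes, each left untreated or exposed for 4 h to lipopolysaccharide (LPS, a component of the Gram-negative outer membrane) at 100 ng/ml. All mice were C57BL/6J females, and the study's methods give ages of 10 to 23 weeks. Mice with a Cre recombinase in the Lyz2 locus, which drives Cre in myeloid cells, were counted as WT. GILZ KO mice carried in addition loxP sites around exon 6 of Gilz (gene symbol Tsc22d3), and GILZ TG mice a Gilz-1 cDNA in the ROSA26 locus behind a loxP-flanked stop cassette. The promoter of Lyz2 is also active in other myeloid cells, such as neutrophils. BMMs were grown from bone marrow with M-CSF for 6 days.

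EGR proteins are immediate early factors: their genes respond to growth factors, cytokines and microbial products through extracellular signal-regulated kinase (ERK) signalling and serum response factor, and they bind GC-rich sites through zinc fingers. KLF proteins bind GC boxes and CACCC elements through C-terminal zinc fingers of the same type and either activate or repress, depending on their N-terminal part. In macrophages, KLF2 is known as a restraint on inflammatory gene expression and KLF6 as a partner of nuclear factor kappa B (NF-kB), while EGR2 and KLF4 are known as markers of alternative activation.

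Tsc22d3, the targeted gene, was lower in GILZ KO and higher in GILZ TG than in WT without treatment (log2 fold change -2.74 and 2.63, adjusted p = 2.16e-05 and 3.73e-06 by edgeR). It stood at 14.88 to 18.84 TPM, a level per transcript length that sums to the same total in each library, in untreated WT, 1.89 to 2.81 in GILZ KO and 151.97 to 159.83 in GILZ TG. After LPS it was at 4.56 to 5.81 TPM in WT, 2.5 to 3.28 in GILZ KO and 127.22 to 140.56 in GILZ TG, and the difference between GILZ KO and WT then did not pass the test (log2 fold change -0.69, adjusted p = 0.15). Lyz2, the locus that holds Cre, also differed between genotypes, although the study counts Lyz2-Cre mice as WT. It stood at 11048.16 to 15401.11 TPM in untreated WT and 26.72 to 45.83 and 17.24 to 53.08 in GILZ KO and GILZ TG. WT thus differed from both other genotypes in Lyz2 (log2 fold change -8.63 and -8.61, both adjusted p = 2.16e-05), and in comparisons with WT the state of the Lyz2 locus and that of GILZ cannot be told apart. Between untreated GILZ KO and GILZ TG the log2 fold change of Lyz2 was -0.02 (adjusted p = 0.986). All 6 macrophage markers were above 1 TPM in every library. Summed stromal, neutrophil and B cell markers were higher in replicates 1 and 2 of GILZ TG than in WT and GILZ KO, with values given beside the results that they touch, and sums of endothelial, T cell and erythroid markers were not. In RNA of whole cultures, fewer cells of a type and less RNA per cell cannot be told apart. Read totals on genes ran from 14583055 to 38557029 per library.

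Promoters of 7 of the 10 members were examined, and those of Egr1, Egr3 and Klf10 were not. The 7 promoters shared a high content of G and C, at 58.3 to 76.7%, against a median of 52.7% over 32851 promoters. For each of these 7 members the promoter nearest the gene start was taken, from 5 for Egr2, and that of Klf7 lay 893 bases away. Sequences of 300 bases (250 before and 50 after the start of transcription) are shown for Klf6 and Klf3, which rose most of the 10 members after LPS in WT, for Klf2, which fell, and for Egr2, the member that differed between genotypes. They were taken from RefSeq on GRCm38.p6, all on the plus strand: Klf6 at chr13:5861239-5861538, Klf3 at chr5:64803271-64803570, Klf2 at chr8:72318812-72319111 and Egr2 at chr10:67535249-67535548. Capitals mark matches, on either strand, to the GC box GGGCGG, the EGR motif form GCGGGGGCG, the NF-kB motif and the MEF2 motif, the latter bound by the myocyte enhancer factors 2.
Klf6: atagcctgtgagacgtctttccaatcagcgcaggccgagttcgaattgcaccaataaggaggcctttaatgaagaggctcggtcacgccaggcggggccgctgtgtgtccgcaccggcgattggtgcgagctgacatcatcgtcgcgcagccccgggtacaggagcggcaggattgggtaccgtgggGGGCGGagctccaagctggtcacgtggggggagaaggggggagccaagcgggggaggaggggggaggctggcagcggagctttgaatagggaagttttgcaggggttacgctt
Klf3: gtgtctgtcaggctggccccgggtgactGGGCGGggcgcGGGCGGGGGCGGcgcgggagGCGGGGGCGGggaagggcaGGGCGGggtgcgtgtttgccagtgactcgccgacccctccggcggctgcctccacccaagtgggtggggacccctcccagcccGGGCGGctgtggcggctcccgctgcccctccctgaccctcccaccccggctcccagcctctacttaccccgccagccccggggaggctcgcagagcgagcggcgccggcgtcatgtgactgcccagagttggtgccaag
Klf2: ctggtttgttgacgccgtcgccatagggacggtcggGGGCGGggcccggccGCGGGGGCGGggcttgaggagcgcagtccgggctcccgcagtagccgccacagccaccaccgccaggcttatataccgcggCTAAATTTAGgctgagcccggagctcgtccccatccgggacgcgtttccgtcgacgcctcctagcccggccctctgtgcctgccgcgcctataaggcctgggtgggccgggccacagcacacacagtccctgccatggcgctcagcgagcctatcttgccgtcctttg
Egr2: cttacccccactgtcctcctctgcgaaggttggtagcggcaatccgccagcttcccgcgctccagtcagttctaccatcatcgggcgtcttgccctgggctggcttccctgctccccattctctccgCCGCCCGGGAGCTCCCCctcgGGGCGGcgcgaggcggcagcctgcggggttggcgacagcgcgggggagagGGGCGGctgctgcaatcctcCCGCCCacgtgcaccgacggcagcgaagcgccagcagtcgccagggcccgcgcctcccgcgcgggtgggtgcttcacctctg

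The GC box, the core of sites bound by KLF proteins, was found in all 7 of these promoters, with 1 to 6 matches, and in 35.7% of all promoters of this length. GCGGGGGCG was in the promoters of Klf2, Klf3 and Klf4 and in 2.91% of all promoters, and each time it overlapped a GC box. A MEF2 motif was in the Klf2 promoter and in 3.19% of all. NF-kB motifs were matched in the Egr2 promoter with 2 overlapping matches next to a GC box, and the motif was found in 8.46% of all promoters. The CCAAT box CCAAT, not capitalised, had 4 matches in Klf6 and 2 in Klf13, with 37.4% of all promoters holding it. None of the 7 promoters, which do not include that of Egr1, held a CArG box, the site of serum response factor (1.63% of all), or the EGR site GCGTGGGCG (0.612%). These matches describe the sequence alone.

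In untreated WT cells, Klf6 was the most abundant member at 112.9 ± 3.73 TPM (SD, n = 3), followed by Klf10 at 36.7 ± 2.54 and Klf2 at 33.0 ± 11.9. The ranges of Klf10, Klf2 and Klf13 (21.8 ± 1.68 TPM) overlapped from neighbour to neighbour, as did those of Klf3 at 16.0 ± 0.925 and Klf4 at 14.6 ± 0.581. Klf7 (8.21 ± 0.465), Egr2 (5.20 ± 0.211), Egr1 (2.97 ± 0.19) and Egr3 (0.193 ± 0.0924) followed without overlap. The order was the same in GILZ KO, and in GILZ TG Egr2 was above Klf7 by mean, with overlapping ranges. After LPS the order in WT was another. Klf6 reached 492.4 ± 8.68 TPM, Klf3 41.3 ± 3.65 and Klf7 15.2 ± 2.03, each without overlap with the next. Klf4, Klf13, Klf2, Klf10 and Egr1 then lay between 9.98 and 5.56 TPM by mean, and neighbours among them overlapped. Summed over the 10 members, TPM came to 243.87 to 276.51 in untreated libraries and 549.93 to 661.34 after LPS. Klf6 made up 43.94 to 47.87% of that sum in untreated libraries and 81.22 to 84.67% after LPS.

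**Figure D1:**
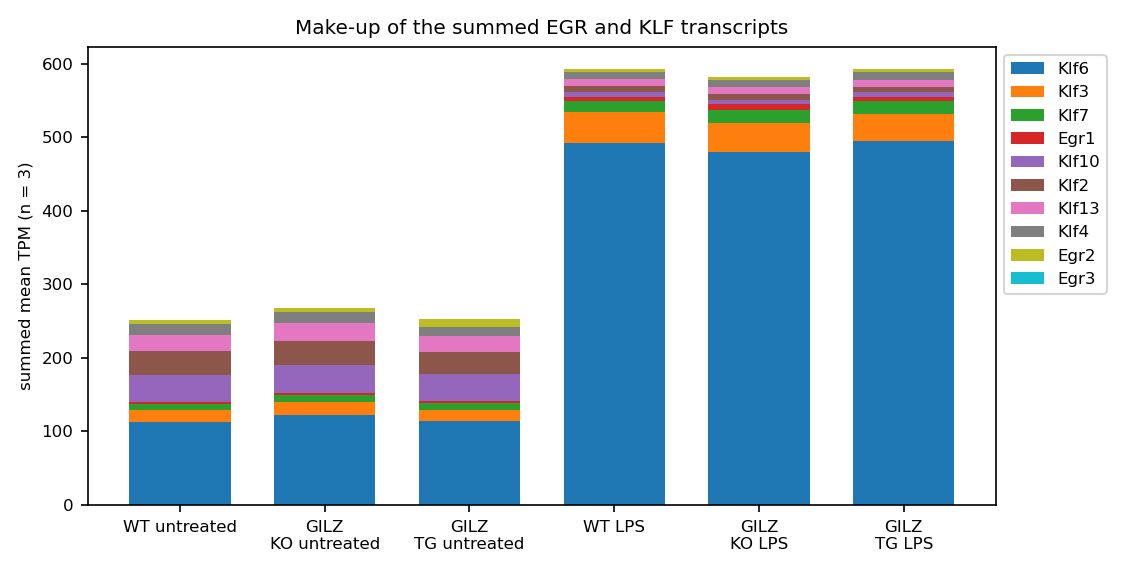
Stacked bars of the mean TPM (y axis, n = 3) of each of the 10 transcripts in the 6 groups (x axis). Klf6 makes up between 43.94 and 47.87% of the sum in single untreated libraries and between 81.22 and 84.67% after LPS, in all 3 genotypes.

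**Figure D2:**
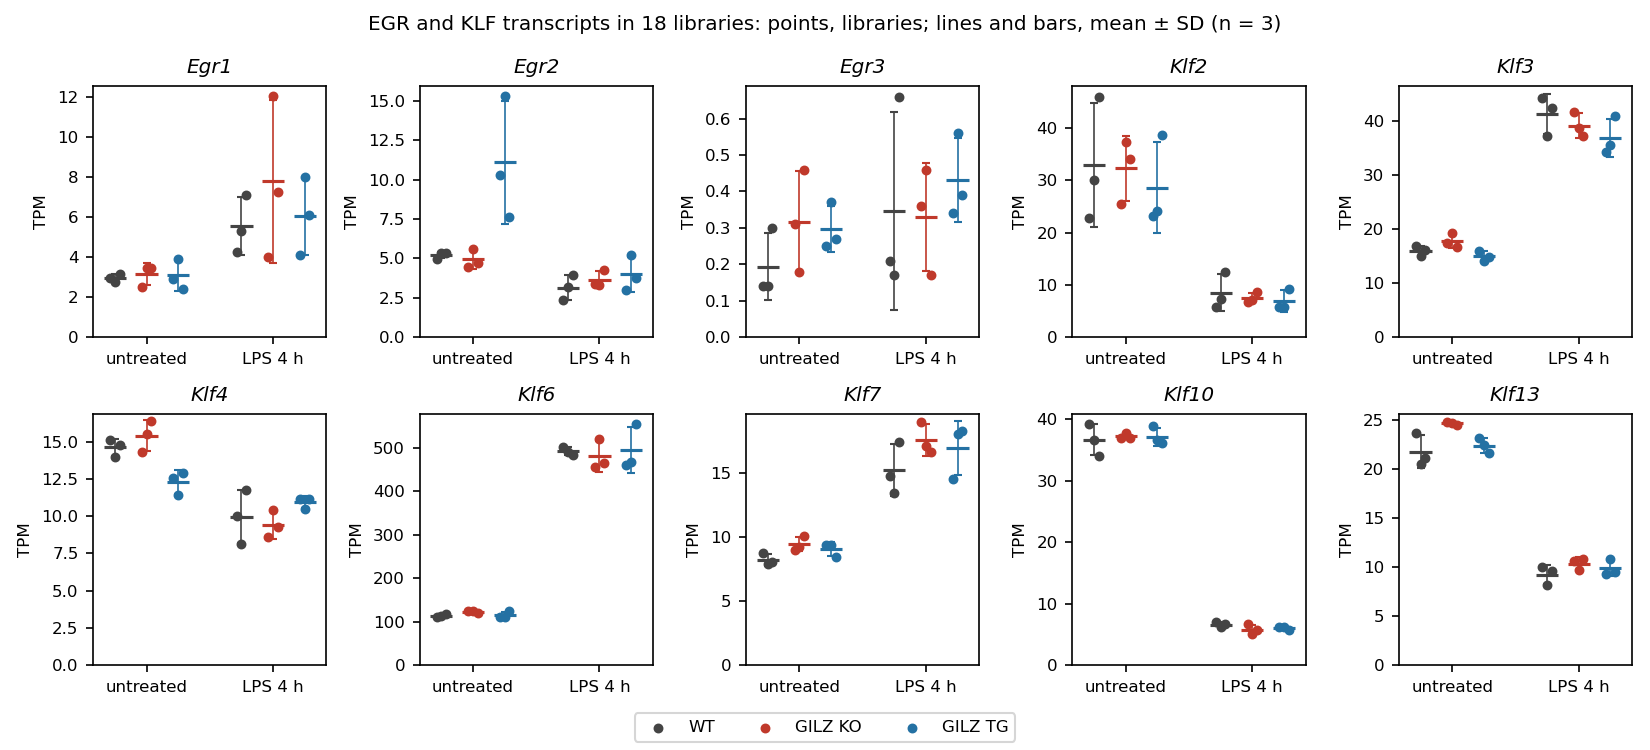
TPM (y axes, each from 0) of each transcript in every library (points), with the mean and SD of 3 libraries, for WT, GILZ KO and GILZ TG, untreated and after 4 h of LPS. In TPM, Egr1, Klf3, Klf6 and Klf7 are higher and Egr2, Klf2, Klf4, Klf10 and Klf13 lower after LPS in each genotype without overlap. Egr2 is higher in untreated GILZ TG than in the other untreated groups.

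The first comparison asked how the family responds to LPS. Egr1, Klf3, Klf6 and Klf7 rose and Klf2, Klf10 and Klf13 fell in all 3 genotypes. Of the 9 members with enough counts to be tested, 7 passed the test in WT, 7 in GILZ KO and 9 in GILZ TG, where Egr2 and Klf4 passed as well. The response was broad: 68.6%, 68.5% and 68.7% of the 13169 genes tested passed in WT, GILZ KO and GILZ TG, so the number of members that changed is near the background. By direction, 4, 4 and 5 members were higher and 3, 3 and 4 lower, and of all genes 33.5%, 33.2% and 33.6% were higher and 35.1%, 35.4% and 35.1% lower. Without GILZ TG replicates 1 and 2, which are described with Egr2, 8 members passed in GILZ TG. The median absolute log2 fold change was 1.52 over the members in WT and 0.57 over all genes tested. All 9 tested members had TPM ranges that did not overlap between untreated and LPS libraries in each genotype, against 81.2%, 83.7% and 80.9% of all genes. Of these members 4 were above and 5 below after LPS, while 16.3%, 16.4% and 15.7% of all genes were above and 64.8%, 67.3% and 65.2% below. Log2 fold changes are from edgeR with TMM normalization, which sets the typical gene near 0 (median -0.02 in WT). On the scale of log2(TPM + 0.1) the median of all genes was -0.62 in WT, and on total counts without a normalization factor it was -0.70. In WT 48.9% of the genes called with TMM were higher after LPS and 19.8% of those called on the TPM scale. Values with TMM therefore read as change relative to the typical gene, and members with small changes turn with the scale.

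**Figure D3:**
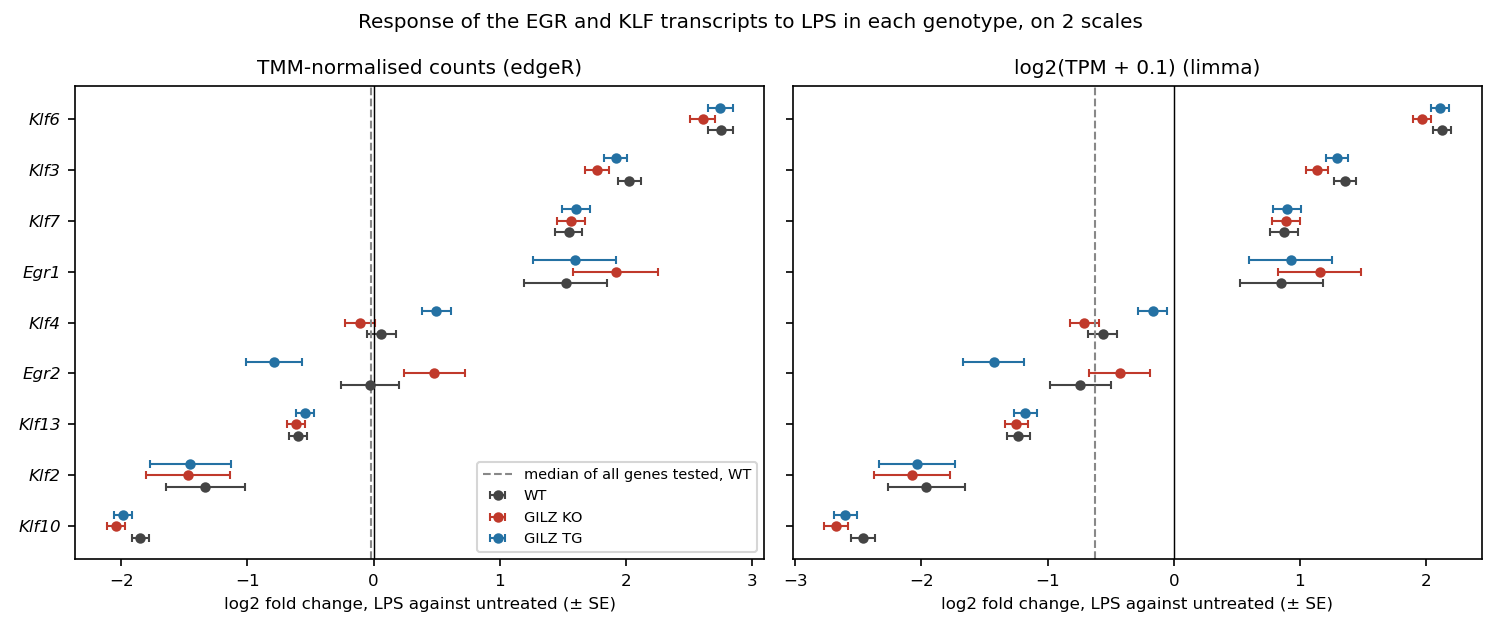
Log2 fold change after LPS (x axis, ± SE) of the 9 tested transcripts in 3 genotypes, with TMM-normalised counts (left) and log2(TPM + 0.1) (right); dashed lines mark the median of all genes tested in WT, -0.02 and -0.62. Klf6, Klf3, Klf7 and Egr1 lie above 0 and Klf13, Klf2 and Klf10 below 0 on both scales, whereas Klf4 in WT and GILZ TG and Egr2 in GILZ KO change sign.

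Klf6, a tumour suppressor and co-activator of NF-kB target genes, had the largest rise of the 10 members. It was at 109.35, 112.54 and 116.79 TPM in untreated WT and at 501.53, 491.55 and 484.23 after LPS. GILZ KO went from 124.17, 123.37 and 119.78 TPM to 455.19, 519.97 and 465.97, and GILZ TG from 110.07, 109.51 and 123.64 to 461.3, 466.48 and 556.29. All LPS libraries of the 3 genotypes, at 455.19 TPM or more, were above all untreated ones, at 124.17 or less. The log2 fold change was 2.75 ± 0.10 (SE) in WT, 2.61 ± 0.10 in GILZ KO and 2.75 ± 0.10 in GILZ TG (adjusted p = 1.08e-13, 2.38e-13 and 1.12e-13). In WT 7.3% of the genes tested changed at least as much in absolute terms. Klf3, which recruits C-terminal binding protein corepressors and is mostly a repressor, stood at 16.9, 15.06 and 16.15 TPM in untreated WT and at 44.26, 37.22 and 42.42 after LPS. In GILZ KO the values were 17.47, 19.25 and 16.7 TPM before and 41.6, 38.75 and 37.16 after, and in GILZ TG 15.95, 14.11 and 14.83 before and 34.28, 35.63 and 40.88 after. The groups were far apart, with 34.28 TPM as the lowest value after LPS and 19.25 as the highest without it. Its log2 fold change was 2.03 ± 0.09, 1.77 ± 0.09 and 1.92 ± 0.09 in WT, GILZ KO and GILZ TG (adjusted p = 2.53e-12, 2e-11 and 5.85e-12). Klf7, a relative of Klf6 by sequence, went from 8.74, 7.86 and 8.04 TPM to 14.76, 13.43 and 17.41 in WT. It went from 9, 9.21 and 10.06 to 18.98, 17.11 and 16.64 TPM in GILZ KO and from 9.35, 9.36 and 8.41 to 14.55, 18.03 and 18.31 in GILZ TG. In WT that is a log2 fold change of 1.55 ± 0.11, with 1.57 ± 0.11 in GILZ KO and 1.61 ± 0.11 in GILZ TG (adjusted p = 9.27e-10, 1.02e-09 and 5.65e-10). The responses of Klf6, Klf3 and Klf7 were thus much larger than the spread between replicates.

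Egr1, the best known immediate early member, was at 2.97, 2.78 and 3.16 TPM in untreated WT and 4.25, 5.32 and 7.11 after LPS. GILZ KO had 2.52, 3.47 and 3.46 TPM before and 4.01, 12.07 and 7.27 after, and GILZ TG 2.93, 3.93 and 2.4 before and 4.1, 7.99 and 6.09 after. Within each genotype the LPS libraries were above the untreated ones, and the LPS libraries varied most in GILZ KO. The log2 fold change was 1.52 ± 0.33 in WT, 1.92 ± 0.34 in GILZ KO and 1.60 ± 0.33 in GILZ TG (adjusted p = 0.000567, 7.5e-05 and 0.000363). Egr3, a relative of Egr1 and Egr2 known from T cells and neurons, stayed between 0.14 and 0.66 TPM in all libraries, with at most 14 expected counts. It was left out of every test by the filter on low counts, and its ranges overlapped between untreated and LPS libraries.

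Klf10, first described as a gene induced by transforming growth factor-beta (TGF-beta), had the largest fall of the 10 members. It stood at 39.2, 36.71 and 34.12 TPM in untreated WT and at 6.94, 6.14 and 6.61 after LPS. GILZ KO went from 36.93, 37.77 and 37.04 TPM to 6.64, 5.05 and 5.62, and GILZ TG from 38.88, 36.63 and 36.12 to 6.19, 6.23 and 5.69. In all genotypes every LPS library far below every untreated one. The log2 fold change was -1.85 ± 0.07, -2.05 ± 0.07 and -1.99 ± 0.07 in WT, GILZ KO and GILZ TG (adjusted p = 1.5e-13, 9.12e-14 and 5.87e-14). Klf13, a factor known for its part in T cell chemokine expression, went from 23.66, 20.49 and 21.12 TPM to 9.95, 8.11 and 9.61 in WT. GILZ KO had 24.78, 24.68 and 24.51 TPM before and 10.59, 9.64 and 10.81 after LPS, and GILZ TG 23.15, 22.39 and 21.59 before and 9.29, 10.77 and 9.51 after. LPS libraries of all genotypes were below the untreated ones. Its log2 fold change was smaller, at -0.60 ± 0.07, -0.61 ± 0.07 and -0.54 ± 0.07 (adjusted p = 7.07e-07, 6.66e-07 and 2.3e-06), and on the TPM scale it was -1.23, -1.25 and -1.18.

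Klf2, the factor that holds myeloid cells in a quiescent state, fell as well, with a wide spread between preparations. Untreated WT libraries had 22.83, 30.07 and 46.03 TPM and LPS libraries 5.7, 7.3 and 12.51. In GILZ KO the values were 25.42, 37.46 and 34.05 before and 6.77, 7.16 and 8.68 after LPS, and in GILZ TG 23.19, 24.1 and 38.66 before and 5.71, 5.71 and 9.26 after. Replicate 3 was the highest in 5 of the 6 groups, the exception being untreated GILZ KO, and no LPS library reached the lowest untreated one. Fold changes were -1.33 ± 0.32, -1.47 ± 0.33 and -1.45 ± 0.32 on the log2 scale (adjusted p = 0.00119, 0.000829 and 0.000662).

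Klf4, an inducer of monocyte differentiation, depended on scale and genotype. It stood at 15.12, 13.99 and 14.79 TPM in untreated WT, 14.32, 15.51 and 16.43 in GILZ KO and 12.55, 11.42 and 12.92 in GILZ TG. After LPS the values were 10.05, 8.14 and 11.75, then 8.59, 10.4 and 9.25, and 11.15, 10.49 and 11.18 in the same order. TPM after LPS were below all untreated values of the same genotype, and the gap was smallest in GILZ TG. Relative to the typical gene, the log2 fold change was 0.06 ± 0.11 in WT (adjusted p = 0.64) and -0.11 ± 0.12 in GILZ KO (adjusted p = 0.432). In GILZ TG Klf4 rose by TMM with a log2 fold change of 0.50 ± 0.11 (adjusted p = 0.000874), which became -0.17 on the TPM scale (adjusted p = 0.194). On that scale it fell in WT (-0.56, adjusted p = 0.000299) and GILZ KO (-0.71, adjusted p = 3.14e-05).

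Egr2, which is induced by interleukin-4 in macrophages, showed no common direction. TPM went from 4.96, 5.34 and 5.31 to 2.33, 3.16 and 3.92 in WT and from 4.48, 5.61 and 4.72 to 3.37, 3.31 and 4.27 in GILZ KO. In GILZ TG they went from 10.32, 15.29 and 7.65 to 3.02, 5.22 and 3.74. All LPS libraries were thus below the untreated ones of their genotype in TPM. In CPM (counts scaled to library size) after TMM normalization, however, WT had 5.45, 5.50 and 5.78 before LPS and 3.32, 6.46 and 6.65 after, and GILZ KO 4.03, 5.00 and 4.22 before and 6.50, 6.35 and 5.61 after. The log2 fold change by edgeR was -0.03 ± 0.23 in WT (adjusted p = 0.931) and 0.48 ± 0.24 in GILZ KO (adjusted p = 0.0871). Egr2 fell in GILZ TG, with -0.79 ± 0.22 (adjusted p = 0.00461). On the TPM scale the values were -0.74 in WT (adjusted p = 0.0104), -0.43 in GILZ KO (adjusted p = 0.114) and -1.43 in GILZ TG (adjusted p = 4.97e-05), so that the direction in GILZ KO turned. Without replicates 1 and 2 of GILZ TG, the value in GILZ TG by edgeR was -0.12 (adjusted p = 0.789).

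The second comparison asked whether the family depends on GILZ in resting cells. Egr2 was the member that passed, with 1 of 9 members called between GILZ TG and WT, where 0.642% of 12621 genes were called, and 1 of 9 between GILZ KO and GILZ TG, where 4.94% were called. Untreated GILZ TG libraries had 10.32, 15.29 and 7.65 TPM, all above the highest of WT and GILZ KO at 5.61. The log2 fold change of Egr2 was 1.07 ± 0.19 for GILZ TG against WT (95% interval 0.65 to 1.49, adjusted p = 0.0377) and -1.41 ± 0.20 for GILZ KO against GILZ TG (-1.85 to -0.98, adjusted p = 0.00697). GILZ KO and WT overlapped, with a log2 fold change of -0.34 (-0.78 to 0.10, adjusted p = 0.603). DESeq2 called both differences (adjusted p = 0.000109 and 2.32e-08), and both calls of edgeR were lost with some changes to the samples. GILZ TG against WT gave adjusted p = 0.152 with only the 6 libraries compared and 0.0624 to 0.197 without each WT library or without GILZ TG replicate 1 or 2. GILZ KO against GILZ TG gave 0.051 without GILZ KO replicate 1. TPM ranges of the 9 tested members did not overlap between GILZ TG and WT in 2 (Egr2 and Klf4; 14.9% of all genes) and between GILZ KO and GILZ TG in 4 (Egr2, Klf3, Klf4 and Klf13; 28.7%).

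Markers of other cells had the same order of replicates as Egr2 in untreated GILZ TG, but not after LPS. The summed TPM of 7 stromal fibroblast markers was 100.73, 115.03 and 9.75 in untreated GILZ TG replicates 1 to 3, against 4.88 to 21.82 in untreated WT and GILZ KO. For 7 neutrophil lineage markers the sums were 173.54, 449.03 and 62.22 against 22.08 to 56.27, and for 6 B cell markers 91.53, 152.86 and 35.85 against 30.87 to 35.4. Replicate 2 was the highest and replicate 3 the lowest of the untreated GILZ TG group in each of these lists and in Egr2. Both replicates 1 and 2 were above every WT and GILZ KO library in 6 of 7 stromal, 5 of 7 neutrophil and 3 of 6 B cell markers. Col1a1 and Col1a2 led the first list with up to 51.29 and 42.22 TPM, while the B cell gene Ms4a1 did not exceed 0.08 TPM and the T cell genes Cd3d and Cd3e were at 0 in all libraries. Without replicates 1 and 2, the log2 fold change of Egr2 was 0.59 against WT (adjusted p = 0.302) and -0.93 for GILZ KO against GILZ TG (adjusted p = 0.0623), with the lone GILZ TG library assumed to vary like the other groups. After LPS the sums in GILZ TG replicates 1 to 3 were 80.17, 109.34 and 10.3 (stromal), 207.28, 487.66 and 79.33 (neutrophil) and 79.4, 144.57 and 25.54 (B cell). Egr2 was then at 3.02, 5.22 and 3.74 TPM, with replicate 1 as the lowest. The part of other cells in the level of Egr2 was not tested.

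**Figure D4:**
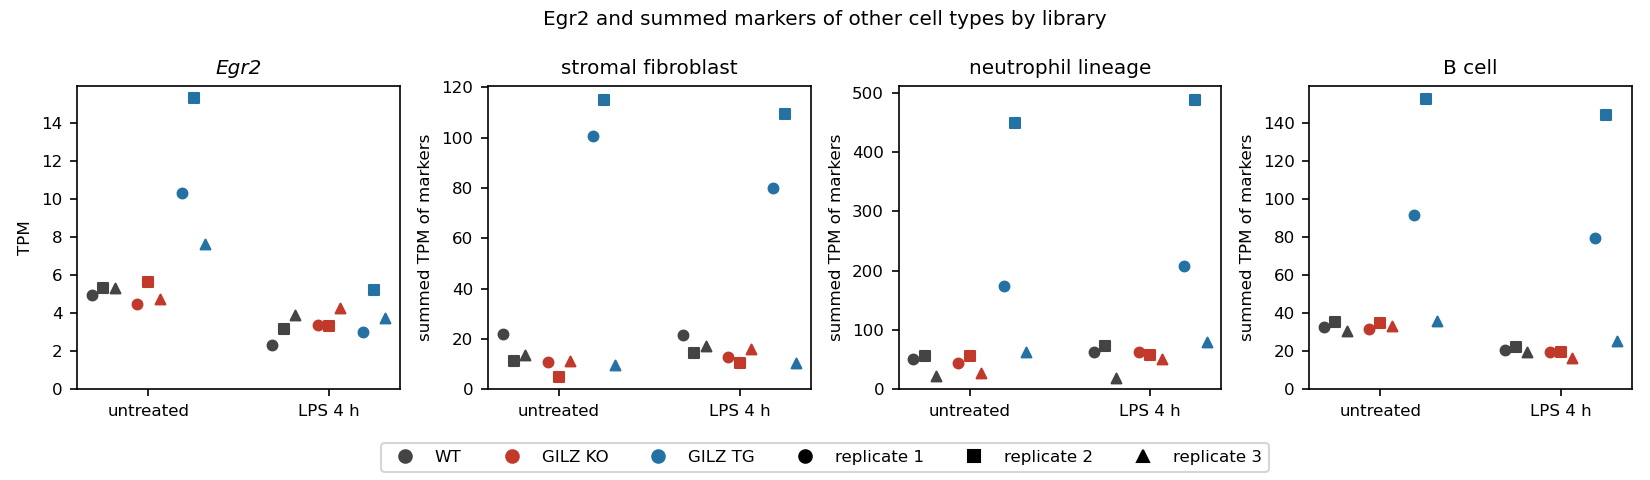
TPM of Egr2 and summed TPM of stromal fibroblast, neutrophil lineage and B cell markers (y axes) in each library, untreated and after LPS; colours mark genotypes and symbols the replicate number. GILZ TG replicates 1 and 2 stand above all WT and GILZ KO libraries in the 3 sums in both treatments. Replicate 3 does so in the neutrophil and B cell sums but not in the stromal sum. In Egr2 the whole untreated GILZ TG group is above 5.61 TPM and LPS values overlap.

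Klf4 was lower in untreated GILZ TG than in all WT and GILZ KO libraries, at 11.42 to 12.92 TPM against 13.99 to 16.43, but the differences did not pass. The log2 fold change was -0.29 ± 0.09 against WT (adjusted p = 0.168) and 0.32 ± 0.09 for GILZ KO against GILZ TG (adjusted p = 0.0621), and the latter was called by DESeq2 (adjusted p = 0.0364, with 0.0364 to 0.308 over all alternatives) without GILZ TG replicate 3 (0.0386) and with a replicate block (0.0415). Klf13 was at 24.51 to 24.78 TPM in GILZ KO, above all libraries of WT and GILZ TG, with a log2 fold change of 0.15 ± 0.05 against WT (adjusted p = 0.43). GILZ KO also stood above WT without overlap in Klf6 and Klf7 by TPM, and 17.2% of all genes did not overlap between these groups. Of the 9 members, 0 were called between GILZ KO and WT by edgeR or DESeq2, 1 had an unadjusted p under 0.05, and 0.0951% of all genes were called, with 1211 genes at an unadjusted p under 0.05. For Klf3, Klf6, Klf7, Klf10 and Klf13 the untreated genotype differences were small: no log2 fold change exceeded 0.22, and the 95% intervals lay between -0.27 and 0.41. Klf2 and Egr1 were measured less closely, with intervals that reached from -0.85 to 0.78.

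**Figure D5:**
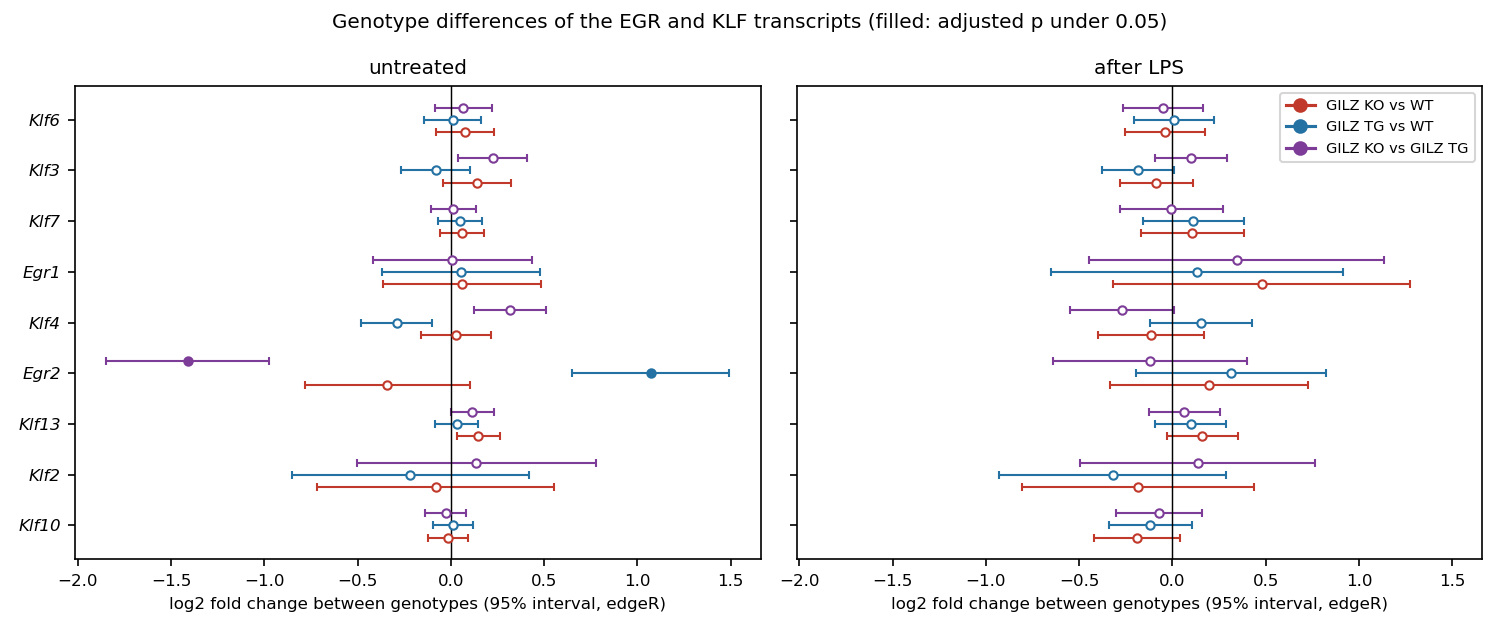
Log2 fold change between genotypes (x axis, with 95% interval from edgeR) of the 9 tested transcripts in untreated cells (left) and after LPS (right); filled points passed an adjusted p of 0.05. The 2 filled points are Egr2 in untreated GILZ TG against WT (1.07) and GILZ KO against GILZ TG (-1.41); none is filled after LPS.

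After LPS no member passed in any of the 3 genotype comparisons by edgeR or DESeq2, and 0 members had an unadjusted p under 0.05, which 1171, 1852 and 2328 genes had in all. The background was 0.0822% of 12164 genes for GILZ KO against WT, 0.46% for GILZ TG against WT and 2.6% for GILZ KO against GILZ TG. Egr2 stood at 3.02 to 5.22 TPM in GILZ TG and 2.33 to 3.92 in WT, with a log2 fold change of 0.32 (95% interval -0.20 to 0.83). Klf4 did not overlap between GILZ KO and GILZ TG (-0.27 ± 0.13, adjusted p = 0.282), where 20.6% of all genes did not overlap. No member was apart by TPM in GILZ KO against WT (16.3% of all genes) or GILZ TG against WT (15.2%). For Klf3, Klf6, Klf7, Klf10 and Klf13 the intervals lay between -0.42 and 0.39. Klf3 of GILZ TG against WT passed without GILZ TG replicate 3 (log2 fold change -0.28, adjusted p = 0.0439). Intervals of Egr1 were wide and reached 1.28 for GILZ KO against WT.

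The third comparison tested whether the LPS response itself differed between genotypes. No member passed in the fit without a replicate block: 0 of 9 for GILZ KO against WT (0.0152% of all genes called), GILZ TG against WT (0.00759%) and GILZ KO against GILZ TG (0.121%). Unadjusted p was under 0.05 for 0, 2 and 2 members, and the 2 were Egr2 and Klf4 both times, and DESeq2 called 0, 0 and 1. The LPS response of Egr2 was higher in GILZ KO than in GILZ TG by 1.27 ± 0.33 on the log2 scale (95% interval 0.58 to 1.97, adjusted p = 0.146), and this was the difference that DESeq2 called (adjusted p = 0.024, with 0.024 to 0.694 over all alternatives). Without untreated GILZ TG replicate 3 it passed by edgeR too (1.46, adjusted p = 0.0444), and without GILZ TG replicates 1 and 2 it was 0.60 (adjusted p = 0.694). For Klf4 the difference of GILZ KO against GILZ TG was -0.61 ± 0.16 (-0.95 to -0.26, adjusted p = 0.161, and 0.0323 to 0.544 over alternatives). With the replicate number as a block Klf4 passed (adjusted p = 0.0323), and in GILZ TG, but not in WT or GILZ KO, all 3 untreated and LPS libraries of the same number deviated together. The LPS response of Klf6 differed by 0.14 or less between genotypes, with intervals from -0.42 to 0.27.

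Of 11 other EGR and KLF genes, 7 had too few counts to be tested, and the other 4 changed after LPS in every genotype. Their median log2 fold change in WT was -1.48, against -0.02 over all genes. The share of all genes that changed was 68.6% in WT, 68.5% in GILZ KO and 68.7% in GILZ TG. Klf8, a repressor related to Klf3, rose from 2.33, 2.03 and 2.92 TPM to 16.11, 14.5 and 17.83 in WT (log2 fold change 3.56 ± 0.12, adjusted p = 4.62e-14). Klf16, a GC-box repressor, fell from 18.97, 18.17 and 17.02 TPM to 1.96, 1.7 and 2.16 (-2.58 ± 0.11, adjusted p = 7.23e-13). Klf9 and Klf11, relatives of Klf13 and Klf10, fell as well. The count of 1 higher and 3 lower held on all scales. The 4 genes were not called between genotypes in either treatment, where at most 4.94% of all genes were called.

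Of the partners, the mitogen-activated kinase ERK5 and its MEF2 factors, known to act upstream of Klf2 and Klf4, had more lower than higher genes after LPS: 0 of 5 genes were higher and 4, 4 and 5 lower in WT, GILZ KO and GILZ TG, with a median of -1.01 in WT. Of all genes 33.5%, 33.2% and 33.6% were higher and 35.1%, 35.4% and 35.1% lower, which is the background for the other lists too. On the TPM scale all 5 genes of the ERK5 and MEF2 list were lower in each genotype. On that scale 81.2% of all genes were called in WT and 19.8% of the calls were higher, so that a list with mostly lower genes is near the background there. Mef2d had a log2 fold change of -2.01 ± 0.12 in WT (adjusted p = 1.03e-10), and Mapk7, the gene of ERK5, -1.25 ± 0.06 (adjusted p = 1.65e-11). Mapk7 was also higher in GILZ KO than in GILZ TG after LPS (0.51 ± 0.10, adjusted p = 0.0236), and its LPS response differed between these genotypes (0.58 ± 0.09, adjusted p = 0.0237). Without GILZ TG replicates 1 and 2 the values were 0.61 and 0.65, but a lone GILZ TG library per treatment is too few for a test. In the TGF-beta list 2 of 7 genes were higher and 4 lower in WT, led by Smad3 (-2.18 ± 0.10, adjusted p = 5.48e-12) and the receptor Tgfbr1 (-1.94 ± 0.15, adjusted p = 4.68e-09), whereas on the TPM scale 0 were higher and 7 lower. EGR corepressors and the serum response factor axis had 4 of 8 tested genes higher and 3 lower, and 1 higher and 6 lower on the TPM scale. Elk3, which binds next to serum response factor, fell (-1.40 ± 0.08, adjusted p = 8.81e-11), and Nab1, a corepressor of EGR proteins, rose (0.96 ± 0.06, adjusted p = 5.54e-10). Of 8 KLF corepressors and ubiquitin ligases, 3 were higher and 3 lower, and 2 higher and 5 lower on the TPM scale. They were led by Sin3a, a scaffold of histone deacetylase complexes (-1.63 ± 0.08, adjusted p = 1.63e-11), and Fbxw7, a substrate receptor of a ubiquitin ligase (1.36 ± 0.08, adjusted p = 1.58e-10).

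Other immediate early genes were split in direction, with 7 of 13 higher and 5 lower in WT, 8 and 4 in GILZ KO, and 7 and 5 in GILZ TG. Of all genes 33.5%, 33.2% and 33.6% were higher and 35.1%, 35.4% and 35.1% lower. On the TPM scale 6 of the list were higher and 6 lower in WT. On that scale 81.2% of all genes were called in WT, and 19.8% of the calls were higher. Zfp36, which encodes an mRNA-destabilising protein, rose most (3.49 ± 0.10, adjusted p = 8.65e-15), and Fosb, a subunit of AP-1, fell most (-2.57 ± 0.57, adjusted p = 0.000709). The level of Fosb was low, at 0.57, 0.51 and 0.57 TPM in untreated WT and 0.08, 0.02 and 0.07 after LPS. Between genotypes, Junb was lower in untreated GILZ KO than GILZ TG (-0.38 ± 0.07, adjusted p = 0.0219). After LPS, Fosl2 was higher in GILZ KO than in GILZ TG (1.01 ± 0.17, adjusted p = 0.0154), and its LPS response differed (1.08 ± 0.20, adjusted p = 0.0496). Without GILZ TG replicates 1 and 2 these 3 values were -0.32 for Junb and 0.82 and 0.73 for Fosl2, but a lone GILZ TG library per treatment is too few for a test. The other 5 lists gave no call between untreated genotypes, where at most 4.94% of all genes were called.

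Over the 18 libraries, which fall into untreated and LPS clusters, members followed the treatment. As a description, Pearson's r of log2(TPM + 0.1) was -0.996 between Klf6 and Klf10, 0.985 between Klf3 and Klf6, and 0.984 between Klf10 and Klf13. Among 9415 other genes of at least 5 TPM, the profile of Klf6 was closest to Sp140 and Ddx58 (both 0.999), that of Klf10 to Mtss1 (0.999) and Fam83f (0.998), and that of Klf3 to Usp25 (0.993) and Trim12c (0.992). Klf13 was closest to Dgkd (0.994) and Pip4k2c (0.993), Klf7 to Sipa1l1 (0.992) and Inpp5b (0.982), and Klf2 to Tmem126a (0.986) and Reep4 (0.985). The members that followed the treatment less closely had lower values. Egr2 was closest to Smad1 (0.925) and Id1 (0.905), Klf4 to Usp46 (0.912) and Cyb5rl (0.902), and Egr1 to Nfil3 (0.897) and Lrrc8c (0.873). For Egr3, with few counts, the closest was Mpc1-ps (0.792).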

How the data were processed

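RNA-Seq of 18 BMM libraries was analysed. The authors mapped reads to GRCm38 with grape-nf 1.1.3 after FastQC 0.11.2, and the deposited tables hold for each library an expected count (estimated reads per gene, not normalized, as RSEM writes it) and TPM of 38887 genes. The version of RSEM and the annotation release are not given in the sources used here. The deposited DESeq2 1.40.2 tables hold the authors' fold changes and p-values, which were not used; other columns gave gene symbols, and 37570 genes had one, with the annotation. Of all expected counts 6.02% were not whole, and all were rounded. A row with no gene name in 14 library tables was left out. Promoters were taken from RefSeq.

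Counts were filtered by filterByExpr, scaled by TMM factors and compared in R 4.3.3 with edgeR 4.0.16 (glmQLFit and glmQLFTest). LPS responses and their differences came from 1 fit of 18 libraries, and genotype comparisons from the 9 libraries of a treatment. P-values were two-sided and adjusted over all genes tested by Benjamini-Hochberg, with a threshold of 0.05. With 3 libraries against 3, an exact permutation test could not go below 0.1. The labels do not say which libraries come from the same mouse, and p-values measure the spread between preparations. Alternatives were DESeq2 1.42.0, limma 3.58.1 on log2(TPM + 1) and log2(TPM + 0.1), other size factors and filters, other sets of libraries, a replicate block and each replicate left out. Total counts without a factor, and leaving out GILZ TG replicates 1 and 2, were chosen after seeing the data, as was the repeat of single partner genes without those replicates. With them left out, a lone GILZ TG library remained in each treatment. Scripts were tested on simulated data. Same-numbered untreated and LPS libraries deviated together in GILZ TG (correlations 0.266, 0.397 and 0.605) but not in WT or GILZ KO throughout. Between same-numbered libraries of different genotypes, correlations ran from -0.136 to 0.241 without treatment, with 2 of 9 pairs over 0.1. After LPS they ran from -0.125 to 0.082.

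The members, lists and markers were chosen with earlier results of these data known. Named were all members, Tsc22d3, Lyz2, for each partner list the genes with the largest absolute log2 fold change among those called, and for each member the 2 genes with the most similar profile. Klf9, Klf11 and single markers were named after their values were seen. Precision of low genes is set by depth. Figures were drawn with matplotlib 3.10.9.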

Additional observations from a re-analysis of the deposited data

Results flagged for a closer look

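In Egr2, libraries of 2 genotypes lay on opposite sides of their untreated means after LPS on 1 scale. In TMM-normalised log2 CPM, every GILZ TG library after LPS was below the untreated mean of its genotype and every GILZ KO library above its own, with a difference between the mean responses of -1.23. The test of this difference by edgeR did not pass (adjusted p = 0.146). The change in GILZ KO did not pass either (0.48, adjusted p = 0.0871), and on the log2(TPM + 0.1) scale both genotypes were lower after LPS (-0.43 in GILZ KO and -1.43 in GILZ TG). Without GILZ TG replicates 1 and 2 the value in GILZ TG was -0.12.

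The difference between GILZ KO and WT in Egr2 likewise changed sign with treatment, by 0.58 from untreated cells to LPS, and the edgeR test of the difference did not pass (adjusted p = 0.873). Klf3 showed the same kind of turn between GILZ KO and WT, by -0.25 (adjusted p = 0.815). In Klf4 the GILZ KO libraries were above the GILZ TG mean without treatment and below it after LPS, a change of -0.61 (adjusted p = 0.161). These 4 items were picked from many comparisons because all libraries of a group lay on the same side.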

How the results depend on the processing

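Of 850 repeats of member fold changes under alternatives, 808 kept their direction and side of the threshold. These repeats cover the LPS response of every tested member. Between genotypes they cover only Egr2, Klf4 and Klf13 in untreated cells, and Egr2 and Klf4 after LPS. For differences of the LPS response they cover Egr2, Klf3 and Klf4. Scaling turned 3 LPS values. On log2(TPM + 0.1), log2(TPM + 1) and total counts, Klf4 was at -0.56, -0.52 and -0.62 in WT and at -0.17, -0.15 and -0.18 in GILZ TG, and Egr2 at -0.43, -0.35 and -0.15 in GILZ KO. Leaving out 1 library gave ranges that span 0 for values near it: -0.20 to 0.23 for Egr2 and -0.018 to 0.16 for Klf4 after LPS in WT, -0.067 to 0.36 for Egr2 of GILZ KO against WT after LPS, and, untreated, -0.022 to 0.077 for Klf4 of GILZ KO against WT and -0.018 to 0.064 for Klf13 of GILZ TG against WT. Without GILZ TG replicates 1 and 2 the difference of the Klf3 response between GILZ TG and WT was 0.074. With only the 6 libraries compared, Egr2 rose in GILZ KO after LPS (0.48, adjusted p = 0.00831).

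For untreated GILZ TG against WT, the number of members called went from 1 to 0 at an adjusted p of 0.01, with limma on both TPM scales, with only the 6 libraries and without GILZ TG replicates 1 and 2, and ran from 0 to 1 when leaving out 1 library. For untreated GILZ KO against GILZ TG it was 2 at an adjusted p of 0.1 and with DESeq2, 0 without GILZ TG replicates 1 and 2, and 0 to 2 when leaving out 1 library, with Klf4 as the second member. The difference of the LPS response between these genotypes gave 1 member with DESeq2 and 0 to 1 when leaving out 1 library, and GILZ TG against WT after LPS 0 to 1. The cause was not tested, beyond fewer samples where libraries were left out.

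With the replicate block, 2 members were called between untreated GILZ KO and GILZ TG (Klf4, adjusted p = 0.0415) and 1 in the difference of their LPS responses (Klf4, adjusted p = 0.0323). It changed no other call of a member. Since the labels do not say which libraries come from the same mouse, the block does not replace the main values. Libraries correlated best with their own number in 1 of 3 WT, 2 of 3 GILZ KO and 2 of 3 GILZ TG pairs.

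Counts over all genes moved as well: 81 genes between untreated GILZ TG and WT ran from 16 to 665, and 623 between untreated GILZ KO and GILZ TG from 34 to 1306. The highest counts in both came without GILZ TG replicate 3. Depth limits Egr3, with at most 14 counts in a library.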
